A study of Homo sapiens with 9 samples.

Results

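Narrowly spaced paired footprints of SF3B1 were described: clusters in which SF3B1 touched RNA at 2 places whose mean positions lay 25 to under 35 nt apart. There were 4311 such narrow pairs among 61570 clusters of binding sites, or 7.002% (95% Wilson interval 6.80% to 7.21%), and they held 11430 of 96852 sites. To find them, site centres on 1 strand at most 60 nt apart were linked into clusters, and those at most 12 nt apart into elements. Of the clusters, 44691 had 1 element, 14296 had exactly 2 and 2583 had more. Clusters of 2 elements whose means lay 35 to 45 nt apart, 6333 in number, are called wide pairs and serve as the comparison. Narrow pairs were chosen by the measured positions of their sites, so their spacing and their numbers by spacing are a description, with no test.

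SF3B1 is the largest subunit of SF3b, the protein complex by which the U2 small nuclear ribonucleoprotein (snRNP) holds the branch point of an intron. The branch point adenosine lies a short way upstream of the 3′ splice site, which ends in AG, and is followed by a tract of pyrimidines that U2AF2 binds. SF3b proteins contact the RNA on both sides of the branch point while the spliceosome assembles.

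The series used iCLIP, in which ultraviolet light joins a protein to the RNA it touches and sequencing after immunoprecipitation marks the crosslinked nucleotides. All 9 libraries came from K562, an established leukaemia line: 3 with an SF3B1 antibody from SF3B1 wt/wt cells and 2 with the same antibody from SF3B1 K700E/wt cells, both supplied by Horizon Discovery, and 4 with a U2AF2 antibody from SF3B1 wt/wt cells supplied by ATCC. UV crosslinking is the treatment labelled for all of them. The list analysed is attached by the labels to the 3 SF3B1 libraries of wt/wt cells, replicates 2, 3 and 4, and the other 6 libraries were not analysed here. It is a single merged list with no read number and no column per replicate, so depth is unknown, no spread between cultures can be given, and no test between conditions was possible. Its header speaks of replicates of either condition, so no single site is ascribed to a genotype. The intervals below are 95% Wilson intervals over pairs and cover counting error only; pairs of a gene share their RNA and are not replicates.

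The labels call the tissue lymphoid, whereas K562 is known as a chronic myeloid leukaemia line with erythroid features. Of 15 genes of that lineage and of the BCR-ABL1 fusion, 10 held sites, beside 36.9% of all protein-coding genes, among them TFRC with 121, TAL1 with 17 and ALAS2 with 16. Genes of the list with 0 sites included KLF1, HBG1, HBG2 and HBZ. Of 10 B lymphoid markers, MS4A1 and PAX5 among them, 0 held a site.

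The letters under 17 narrow pairs could be read, 15 from RefSeq windows around annotated gene starts and 2 from microRNA hairpins (GRCh38.p14). They are shown because they place both elements of a pair in its RNA. The 13 pairs printed lie in exactly 1 protein-coding gene. Each of them ends before the annotated start in its window, lies on the other strand of that window, or lies in a hairpin. Each sequence runs 5′ to 3′ in the direction of the transcript, and capitals mark the 5-nt SF3B1 sites. In the first set the upstream element holds more sites than the downstream one.
ITGB1, chr10:32935544-32935620 (- strand): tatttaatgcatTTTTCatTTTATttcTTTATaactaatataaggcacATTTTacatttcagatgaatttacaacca
POLG, chr15:89333910-89333987 (- strand): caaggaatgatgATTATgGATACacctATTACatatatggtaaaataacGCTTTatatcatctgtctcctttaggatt
ABHD3, chr18:21664231-21664310 (- strand): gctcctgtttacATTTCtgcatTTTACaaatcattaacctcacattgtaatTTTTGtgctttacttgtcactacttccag
SMARCC1, chr3:47662580-47662654 (- strand): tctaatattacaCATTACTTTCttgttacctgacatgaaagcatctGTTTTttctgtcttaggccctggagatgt
GRB10, chr7:50732351-50732426 (- strand): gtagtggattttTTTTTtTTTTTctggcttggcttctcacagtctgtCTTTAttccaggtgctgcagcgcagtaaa

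In the next set each element is a single site.
BIVM, chr13:102807082-102807152 (+ strand): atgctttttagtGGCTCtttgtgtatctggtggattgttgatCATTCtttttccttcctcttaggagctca
NCOR1, chr17:16194633-16194706 (- strand): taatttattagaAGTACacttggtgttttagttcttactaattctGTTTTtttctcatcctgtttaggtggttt
ZBTB38, chr3:141386806-141386876 (+ strand): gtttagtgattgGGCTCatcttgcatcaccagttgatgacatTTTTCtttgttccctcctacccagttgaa
RPL10, chrX:154398436-154398510 (+ strand): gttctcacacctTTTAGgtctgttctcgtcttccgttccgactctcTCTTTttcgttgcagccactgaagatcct

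In 2 narrow pairs the downstream element holds more sites.
RPS27A, chr2:55232745-55232813 (+ strand): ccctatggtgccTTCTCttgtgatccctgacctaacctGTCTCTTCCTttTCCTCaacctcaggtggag
RMND1, chr6:151417379-151417458 (- strand): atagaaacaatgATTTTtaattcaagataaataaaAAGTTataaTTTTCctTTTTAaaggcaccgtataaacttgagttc

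A narrow pair was also read in each of 2 microRNA hairpins, both on the strand of the host gene named first. UBTF encodes an rRNA transcription factor and NELFA a subunit of the negative elongation factor.
UBTF, within the MIR6782 hairpin: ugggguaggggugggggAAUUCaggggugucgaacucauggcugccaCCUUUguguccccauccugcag
NELFA, within the MIR943 hairpin: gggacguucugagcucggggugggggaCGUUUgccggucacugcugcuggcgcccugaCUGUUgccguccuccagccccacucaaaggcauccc

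For comparison, 3 wide pairs with 1 site in each element are shown, read in the same way. TARS2 and MARS1 encode enzymes that load tRNA.
S100PBP, chr1:32825245-32825326 (+ strand): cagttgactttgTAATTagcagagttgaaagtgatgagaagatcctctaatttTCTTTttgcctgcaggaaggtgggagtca
TARS2, within the MIR6878 hairpin: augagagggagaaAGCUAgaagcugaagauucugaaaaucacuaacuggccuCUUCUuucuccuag
MARS1, within the MIR6758 hairpin: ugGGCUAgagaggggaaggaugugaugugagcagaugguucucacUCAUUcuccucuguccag

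Most of these stretches have one plan. The upstream capitals come first, the downstream capitals lie in or next to a run of T and C, and an AG follows. In all 15 narrow pairs with 24 further nucleotides of sequence an AG followed within them, the first at a median of 10 nt after the last site (quartiles 6.5 and 16 nt). Among wide pairs this held for 22 of 23, at a median of 9 nt (quartiles 7 and 10.75 nt). AG is a frequent pair of letters: 80.9% of 24-nt stretches at the edge of all start windows, read on both strands, held one, so its presence alone says little. Measured from the element means, the first AG lay 13 nt beyond the downstream element in narrow pairs and 11.5 nt in wide pairs (medians). From the upstream element it lay at 44 nt in narrow pairs (quartiles 41 and 49.75 nt) and at 50.25 nt in wide pairs (quartiles 48 and 53.5 nt). The second distance contains the spacing by which narrow and wide pairs were chosen, and the AG was searched only within 24 nt, so these medians are a description.

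Branch points in human introns commonly resemble T-N-A with a pyrimidine around it, which was searched as 2 short motifs chosen after the sequences were seen. TNAC, on the strand of the transcript, occurred in the central 20 nt between the elements of 11 of 17 narrow pairs (64.7%, 95% Wilson interval 41.3% to 82.7%) and of 13 of 28 wide pairs (46.4%, 29.5% to 64.2%). CTNA occurred in 8 of 17 and 14 of 28. In 4 of the 17 narrow pairs the gap was shorter than 20 nt and was searched whole. Every wide gap was at least 23 nt long, so its outer parts were not searched. The shares of narrow and wide pairs therefore cover unlike parts of the gap and cannot be compared directly. In 20-nt stretches at the edge of all start windows, on both strands, TNAC was present in 16.5% and CTNA in 22.6%. The motifs can overlap each other, and these shares describe the letters only. The share of pyrimidines had a median of 73.3% in the upstream element, 56% between the elements and 80% in the downstream element of narrow pairs. In wide pairs the medians were 60%, 53.0% and 89.4%. These medians rest on 17 narrow and 28 wide pairs, and many elements are a single 5-nt site. No background share of pyrimidines at crosslinked positions was taken, so they describe the letters only.

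Narrow pairs lie on the lower flank of the most common spacing. Counted in steps of 1 nt, clusters of 2 elements rose from 179 at 25 to under 26 nt to 708 at 34 to under 35 nt. Just outside the limits there were 182 at 24 to under 25 nt and 764 at 35 to under 36 nt. The upper limit therefore cuts a continuous distribution near its top, whereas the lower one sits at the foot of the rise. Below it the counts were nearly level, between 153 and 188 per class from 13 to under 25 nt. The median spacing was 31 nt in narrow pairs (quartiles 29 and 33 nt) and 39 nt in wide pairs (quartiles 37 and 41 nt). A narrow pair covered a median of 38 nt from the first to the last base of its sites, a wide pair 46 nt. The list gave both elements the same region number in 0 narrow and 0 wide pairs, which allows shares of up to 0.0696% and 0.0474%. It thus numbers the elements of both kinds of pair as separate regions.

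**Figure D1:**
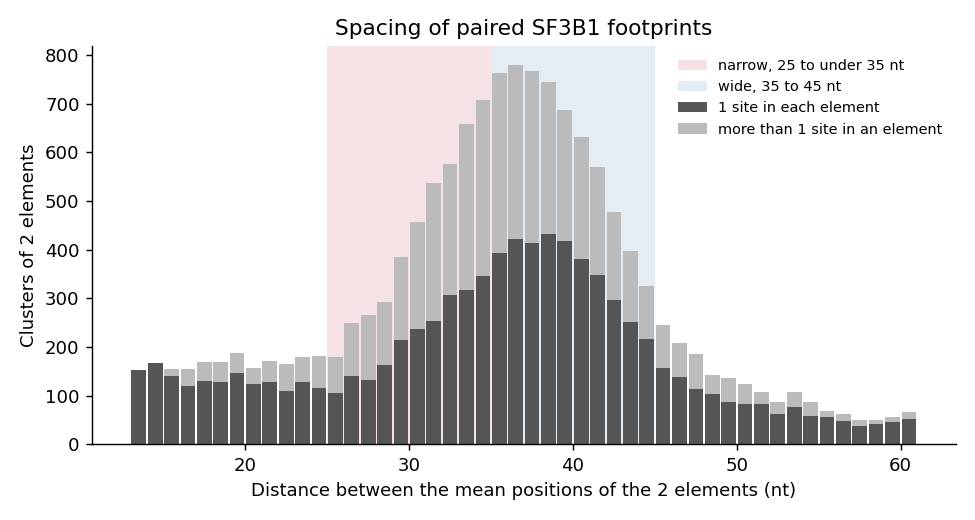
Number of clusters of exactly 2 elements (y axis) by the distance between the means of their elements in nt (x axis, 1-nt classes). Dark bars are pairs with 1 site in each element, pale bars pairs with more; the red band marks the 4311 narrow pairs, which climb from 179 to 708 pairs per nt, and the blue band the 6333 wide pairs.

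With spacing measured between element means, narrow pairs more often had several sites in the upstream element than wide pairs. This order depends on that measure: between outermost sites, 71.8% of narrow and 53.1% of wide pairs had 1 site in each element, the reverse of the order by means, and the upstream share of unequal pairs was 57.1% and 57.9%. A single site in each element made up 2215 narrow pairs, or 51.4% (49.9% to 52.9%), against 58.8% (57.6% to 59.99%) of wide pairs. An upstream element of at least 2 sites occurred in 34.01% of narrow pairs (32.6% to 35.4%) and in 24.5% of wide pairs (23.5% to 25.6%). For a downstream element of at least 2 sites the shares were 23.1% (21.9% to 24.4%) and 23.3% (22.3% to 24.3%), with overlapping intervals. The mean number of sites upstream was 1.39 in narrow and 1.28 in wide pairs, while downstream it was 1.26 in both.

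Of the 1792 narrow pairs with unequal elements, 1132 had more sites upstream and 660 more downstream. The upstream share was 63.2% (60.9% to 65.4%), against 51.6% (49.6% to 53.7%) of 2285 unequal wide pairs. Both strands gave it: among narrow pairs the share was 63.5% on the plus and 62.9% on the minus strand, and among wide pairs 51.2% and 52.1%. On all 23 chromosomes narrow pairs more often had the larger element upstream, with shares from 54.3% on chromosome 20 to 77.1% on chromosome 13. Wide pairs did so on 13 of the 23 chromosomes. The share exceeded that of the wide pairs on 22 chromosomes, chromosome 20 being the exception.

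Whether narrow and wide pairs differed rested on how spacing was measured. A second site on the inner side of an element draws its mean towards the other element, so that element sizes and the distance between means are not independent. With spacing taken between the innermost sites the upstream shares were 59.7% in pairs of 25 to under 35 nt and 50.1% in pairs of 35 to 45 nt. With spacing between the outermost sites the interval was 53.7% to 60.4% for narrow and 56.0% to 59.7% for wide pairs, and these overlap. The larger upstream element in narrow pairs stayed above an even split under all 3 measures. The element link also moved the values: with 9 nt in place of 12 nt, pairs with 1 site in each element made up 58.2% of narrow and 64.3% of wide pairs.

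**Figure D2:**
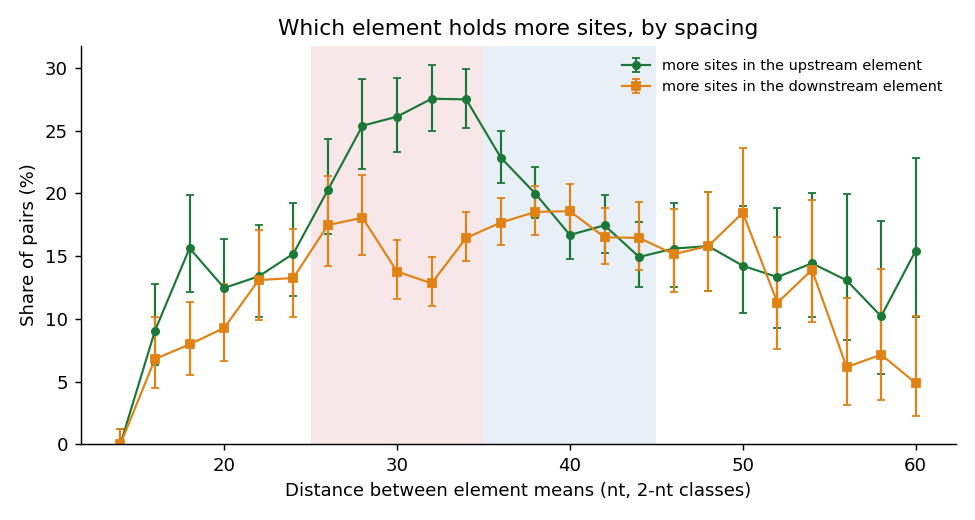
Share of pairs (y axis, %) with more sites in the upstream (green circles) or downstream (orange squares) element, by distance between element means (x axis, 2-nt classes); bars are 95% Wilson intervals, the red band marks narrow and the blue band wide spacing. The curves are farthest apart at 31 to under 33 nt, with 27.6% upstream and 12.8% downstream, and meet within the blue band.

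The upstream surplus varied along the spacing scale and was not confined to narrow pairs. At 17 to under 19 nt, below the narrow range, 15.6% of pairs had more sites upstream and 7.96% more downstream. At 25 to under 27 nt, 20.3% of pairs had more sites upstream and 17.5% more downstream, and the intervals overlapped. At 29 to under 31 nt the shares were 26.1% and 13.8%. At 33 to under 35 nt they were 27.5% and 16.5%. At 35 to under 37 nt, among wide pairs, they were 22.9% (20.8% to 25.02%) and 17.7% (15.9% to 19.7%), and these intervals do not overlap. At 37 to under 39 nt they were 19.99% and 18.5%, and at 39 to under 41 nt 16.7% and 18.6%. Where the upstream element of a narrow pair held exactly 2 sites and the downstream one a single site, as in 953 pairs, the 2 sites were most often 8 nt apart, in 168 of them. In the mirror case, 544 pairs, and in both kinds of wide pair, they were most often 5 nt apart, which is the closest the list allows. The medians were close, 8 nt in the first case and 7 nt in each of the others, with an upper quartile of 9 nt in all. In narrow pairs with several sites upstream and 1 downstream, the outermost centres had a median distance of 36 nt and the innermost 27 nt.

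The largest narrow pairs held 7 sites, in MPHOSPH9, SEPTIN2 and OGT. The pair in OGT, which encodes the enzyme that adds O-GlcNAc to proteins, was the most lopsided one. Its upstream element had 6 sites over 45 nt and its downstream element 1, at chrX:71547829-71547886 on the plus strand. In SEPTIN2, a cytoskeletal GTPase gene, the elements had 3 and 4 sites, 21 and 25 nt wide, at chr2:241337622-241337677. In MPHOSPH9 they also had 3 and 4 sites. These genes were named after their values were seen.

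Narrow pairs were spread over many genes. Of the 4311, 4109 (95.3%) lay in exactly 1 protein-coding gene, 103 in several and 99 in none. Of the 3481 with an annotated gene strand, 99.7% were on it. A narrow pair was found in 2503 of 20056 protein-coding genes (12.5%) and a wide pair in 3158 (15.7%). Both kinds occurred in 1556 genes, which is 62.2% of the genes with a narrow pair and 49.3% of those with a wide pair. A single narrow pair was present in 1582 genes, 2 in 559 and at least 3 in 362. Genes with narrow pairs resembled those with wide pairs in length, with medians over pairs of 56.5 kb and 57.1 kb.

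Of the 10 protein-coding genes with the most narrow pairs, 9 are reported here. UBR4, a very large ubiquitin ligase, had 12 narrow and 23 wide pairs over 136 kb of chromosome 1. The narrow ones lay between 8.51% and 86.0% of the way along the gene and the wide ones between 6.20% and 84.4%. Of its 12, 3 had more sites upstream and 3 more downstream. VPS13D, a lipid transfer protein, and NBAS, a membrane tethering factor, had 10 narrow pairs each, beside 5 and 12 wide ones. In NBAS all 10 narrow pairs lay in the first 41.2% of its RefSeq gene span of 782 kb, and all 12 wide pairs in the first 35.03%. Ends of single transcripts were not used, so positions and pairs per 100 kb refer to whole annotated spans. NIPBL, which loads cohesin, the RNA helicase gene DHX9, LRBA, the clathrin heavy chain gene CLTC and the histone methyltransferase gene KMT2C had 9 each. In DHX9 they lay in a gene of only 48.6 kb, 18.5 narrow pairs per 100 kb, against 1.198 in LRBA and 1.28 in NBAS. GOLGA4, a golgin of the trans-Golgi, had 8.

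Example pairs from these genes show the range. In UBR4 the narrow pair with the most sites had 2 in each element, with means 34 nt apart, at chr1:19198692-19198738 on the minus strand. In VPS13D 2 narrow pairs tied, with 2 and 2 sites each, and the one closer to 30 nt had means 31 nt apart, at chr1:12304454-12304497 on the plus strand. In NBAS 3 narrow pairs tied with 4 sites, and the one closest to 30 nt had 2 and 2 sites with means 30 nt apart, at chr2:15394359-15394401 on the minus strand. In NIPBL the narrow pair with the most sites had 4 upstream over 33 nt and 1 downstream, 33.5 nt apart, at chr5:37006303-37006354 on the plus strand.

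The balance of narrow and wide pairs differed between genes, but each gene holds few. In the 532 genes with at least 5 pairs of either kind the narrow share had a median of 40.0% (quartiles 28.6% and 57.1%). Narrow pairs were the majority in 141 of them and the minority in 349. Among 70 genes with at least 10 pairs the share ran from 14.3% to 80%. The highest were GOLGA4 with 8 of 10, OGT with 8 of 11, VPS13D with 10 of 15, NIPBL with 9 of 14 and MDN1, a ribosome assembly ATPase, with 7 of 11. In GOLGA4 and OGT 4 narrow pairs each had more sites upstream and 0 more downstream. For the rest of these genes the numbers were 4 and 1 in NIPBL, 2 and 2 in VPS13D and 2 and 1 in MDN1. The lowest were CEP192, a centrosome protein, with 2 of 14, SETD5 with 3 of 17, ZMYM4 with 2 of 11, the mannose 6-phosphate receptor gene IGF2R with 3 of 16 and the chromatin silencing gene SMCHD1 with 4 of 20. These genes were picked as the extremes, so their shares carry no test.

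**Figure D3:**
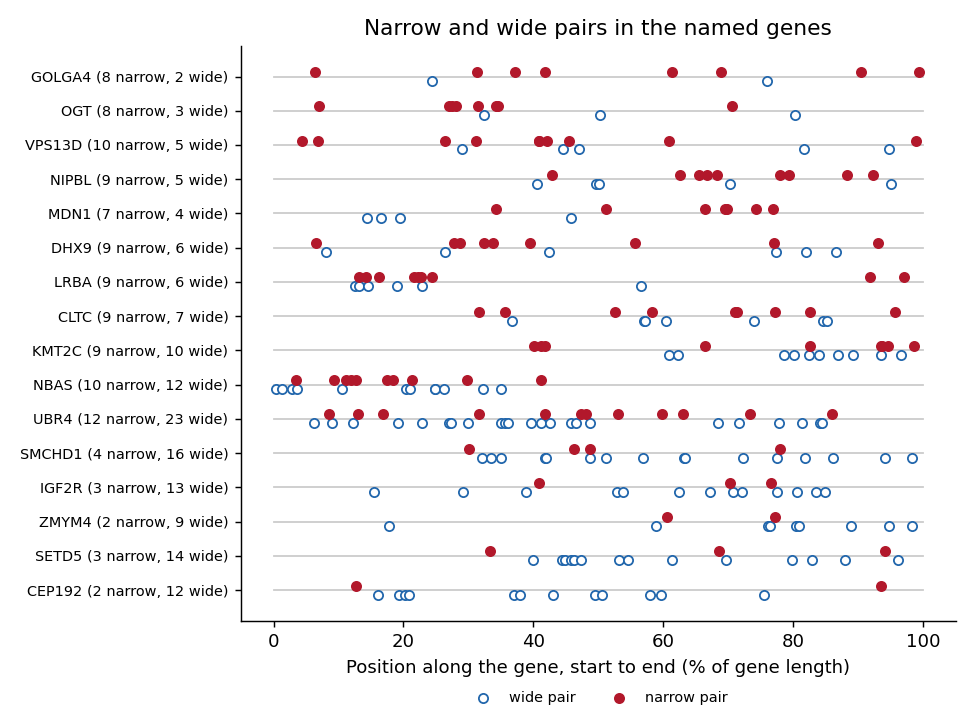
Position of each narrow pair (filled red) and wide pair (open blue) along the named genes, from start to end as % of gene length (x axis); genes (y axis) are ordered by the share of narrow pairs, from CEP192 with 2 narrow and 12 wide to GOLGA4 with 8 and 2. In NBAS both kinds lie in the first part of the RefSeq gene span, narrow pairs up to 41.2% and wide pairs up to 35.03%.

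The kind of the next pair on the same strand of a gene was read after each pair. Of 2454 narrow pairs with a further pair at a higher coordinate in the same gene, the next one was narrow in 40.0% (38.1% to 41.9%). After 3582 wide pairs it was narrow in 41.0% (39.4% to 42.6%), and these intervals overlap. Consecutive narrow pairs had a median distance of 4600 nt (quartiles 1434 and 10569 nt). By chromosome the narrow share of all pairs ran from 34.4% on chromosome 18 to 47.3% on chromosome 22, with a median of 40.6%.

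Along the gene the intervals of narrow and wide pairs overlapped at both ends. In genes with at least 5 sites, 13.5% of 3923 narrow pairs (12.5% to 14.6%) lay in the last 10% of the gene and 3.62% (3.08% to 4.25%) in the first 10%. For 5720 wide pairs the shares were 13.7% (12.8% to 14.6%) and 4.25% (3.76% to 4.80%). Beyond the middle of the gene lay 63.6% of narrow and 64.1% of wide pairs. The median narrow pair was 62.1% of the way along its gene and 18.3 kb from its end, the median wide pair 62.7% and 18.4 kb. For all sites of genes with at least 5 the shares were 12.97% in the last and 4.45% in the first 10%. The interval of the narrow pairs in the first 10% ended a little below the share of all sites, whereas that of the wide pairs contained it. All sites include those of the pairs. With spacing between outermost sites, 3.87% of narrow pairs lay in the first 10%.

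**Figure D4:**
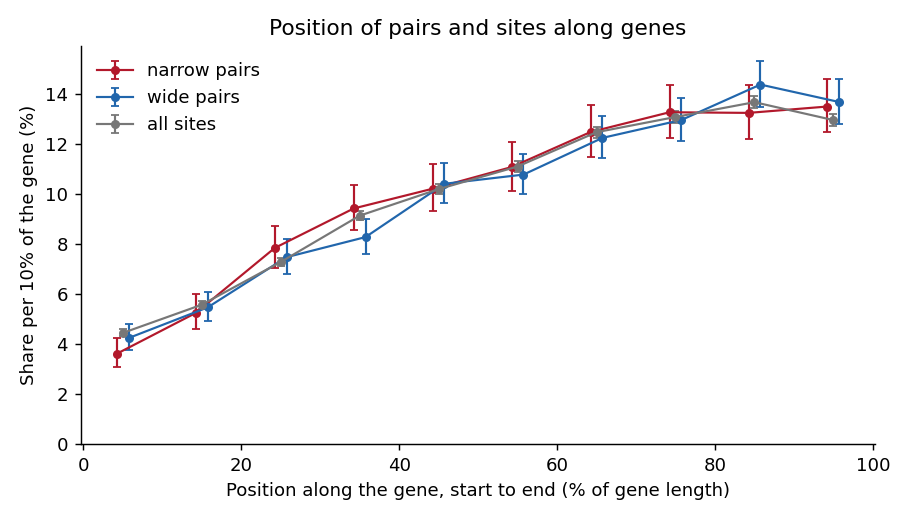
Share of narrow pairs (red), wide pairs (blue) and all sites (grey) in each 10% of the gene (y axis, %) against position from start to end (x axis, % of gene length), with 95% Wilson intervals. Narrow pairs go from 3.62% in the first to 13.5% in the last 10%; wide pairs and all sites are highest in the ninth class, at 14.4% and 13.7%, and lower in the last, at 13.7% and 12.97%.

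Other clusters lay near narrow pairs, more of them downstream. A further cluster centre 100 to 250 nt away was found downstream of 1216 narrow pairs, or 28.2% (26.9% to 29.6%), and upstream of 795, or 18.4% (17.3% to 19.6%). Wide pairs had one downstream in 26.6% (25.5% to 27.7%) and upstream in 16.7% (15.8% to 17.6%), so the intervals of narrow and wide pairs overlap on both sides. The most filled 25-nt class downstream was 125 to 150 nt for narrow pairs, with 5.98 clusters per 100 pairs, and 150 to 175 nt for wide pairs, with 5.80. The median distance to the next cluster was 1150 nt downstream and 1594 nt upstream of narrow pairs, against 1253 and 1950 nt for wide pairs.

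**Figure D5:**
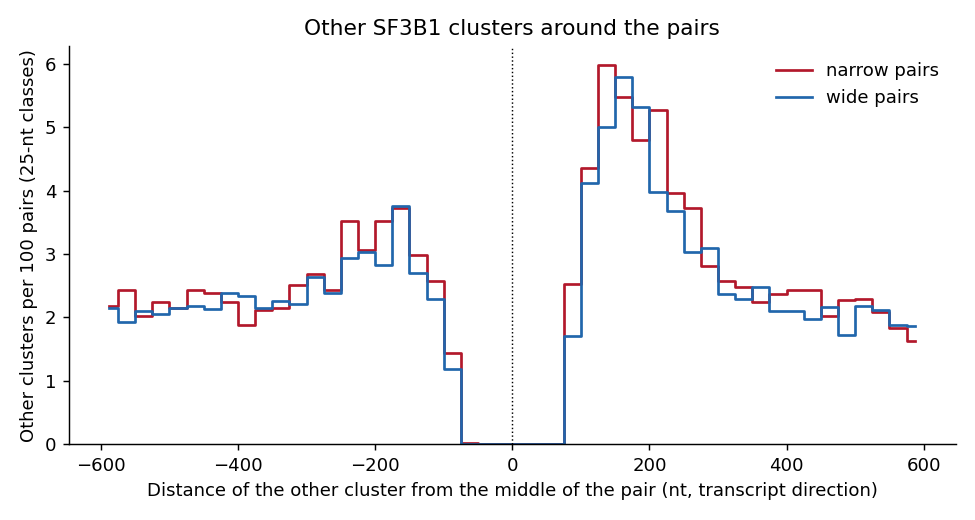
Other SF3B1 clusters per 100 pairs (y axis, 25-nt classes) by their distance from the middle of the pair in the direction of the transcript (x axis, nt; negative is upstream), for narrow (red) and wide (blue) pairs. The gap around 0 follows from the 60-nt link, and the maximum on the right, 5.98 per 100 narrow pairs, exceeds that on the left, 3.73.

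Genes of the splicing machinery often held sites, and with them narrow and wide pairs. Beside the 12.5% of all protein-coding genes with a narrow pair, 12 of 28 genes for the U2 snRNP and branch point recognition had one, 9 of 14 SR protein genes and 18 of 26 hnRNP genes. Wide pairs occurred in 16, 8 and 20 of them. Any site at all occurred in 24, 11 and 22, against 36.9% of all protein-coding genes, and no measure of RNA abundance was used. Of all protein-coding genes with any site, 33.8% held a narrow pair. The listed genes had a median of 10.5, 22.5 and 35 sites. Together they held 24, 18 and 38 narrow beside 37, 18 and 48 wide pairs, where 40.5% of all narrow and wide pairs were narrow. SF3B1 itself had 3 narrow and 3 wide pairs, SF3B3, another SF3b subunit, 4 and 6, and U2SURP, a U2 snRNP associated protein, 4 and 4. Among SR protein genes, which encode splicing factors with arginine-serine repeats, SRSF4 had 4 narrow and 3 wide pairs and SRSF11 had 3 and 0. Counting only pairs in exactly 1 protein-coding gene, as in the shares over all genes, SRSF4 had 3 and 3. The list counts were thus not limited in that way. HNRNPK, an RNA-binding protein of cytosine-rich RNA, had 6 narrow and 2 wide pairs, while HNRNPD had 0 and 5 and HNRNPM 1 and 5.

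Of 16 genes with altered 3′ splice sites when SF3B1 is mutated, 12 held a site, 6 had a narrow and 8 a wide pair. Over all protein-coding genes the shares were 36.9%, 12.5% and 15.7%, and 33.8% of those with any site held a narrow pair. ENOSF1 had 2 narrow and 4 wide pairs, and SERBP1 also had 2 and 4. MAP3K7 had 1 and 2, whereas SLC3A2 had 0 and 4. In the erythroid list the transferrin receptor gene TFRC had 4 narrow and 7 wide pairs. Of the 15 genes, 10 held a site and 4 had a narrow pair, beside the same shares over all genes. Of 25 genes known to lack introns, such as JUN and histone genes, 3 held a site, IER2, H2BC4 and H2AX with 1 each. A pair needs at least 2 sites, so the 0 narrow and 0 wide pairs in this list follow from the site numbers.

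Outside protein-coding genes, 55 of the 99 narrow pairs lay in long non-coding RNA genes, 21 in transcribed pseudogenes, 2 in other pseudogenes and 21 in no annotated gene. Of the 149 wide pairs there, 103 lay in long non-coding RNA genes, 28 in transcribed pseudogenes, 1 in an antisense RNA gene and 17 in no annotated gene. MALAT1, an abundant nuclear RNA, had 4 narrow and 3 wide pairs; they also fall in TALAM1, annotated on the opposite strand. The transcribed pseudogene AHSA2P had 3 narrow pairs and 0 wide ones. These were named after their values were seen.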

How the data were processed

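The data were 1 deposited BED list of SF3B1 binding sites from iCLIP. Per the file headers, sites are 5 nt wide after merging by the authors, and a site had to recur in every replicate of at least 1 condition. The score in the deposited list is 0 in every row and was not used. Per the submitters' processing notes, FastQC 0.11.8, STAR 2.7.3a and 2.6.1b, UMI-tools 1.0.0, bedtools 2.27.1 and the builds GRCh38.p10 and GRCh38.p12 were used; the site caller is not given in the sources used here. Requiring reproducibility can drop sites in rare RNA. Site centres on 1 strand are never closer than 5 nt.

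Positions were site centres, 1-based. Linking, limits and pairs followed the rule given above. Gene spans came from RefSeq for GRCh38.p14, with no exons; a pair was assigned by its midpoint, and positions along genes used pairs on the strand of most of the gene's sites, in genes with at least 5 sites; annotated strands came from the RefSeq tables. Sequences were the RefSeq start windows (250 nt before to 50 nt after a start) and hairpins. Shares have Wilson intervals (statsmodels 0.14.6; Python 3.11.15, pandas 2.3.3, NumPy 2.4.6, matplotlib 3.10.9). No test was made, since the list has no values per replicate. Linking was tested on simulated clusters that were set far apart and held few sites, where 1965 of 1965 planted pairs were found. Crowded clusters were not simulated, so the recovery does not cover them. Gene assignment was checked for 500 sites by direct search. Named genes were the 10 with the most narrow pairs (1 is not reported here) and, among genes with at least 10 pairs, the 5 highest and 5 lowest narrow shares. Members, lists and rules were chosen with earlier results of these data known. Alternatives covered linking distances, spacing limits, merged sites, strands and gene filters.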

Additional observations from a re-analysis of the deposited data

How the results depend on the processing

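Of 176 recalculations of 13 results, 139 stayed within the limits set for them (counts and ratios within 1.5 times, shares within the 95% interval of the value reported) and 37 moved. The upstream share of unequal pairs ran from 57.1% to 71.9% for narrow and from 50.1% to 57.9% for wide pairs. Alternatives on spacing measure, and all those on the upstream share of unequal pairs, were chosen after seeing the data. Single strands split the list: the plus strand gave 2127 narrow and 3193 wide pairs in 1252 genes, with 12.4% of narrow pairs in the last 10% of the gene, and the minus strand 2184 and 3140, also in 1252 genes. Genes of at least 50 kb had 16.2% of narrow and 15.9% of wide pairs in the last 10%. One-site pairs (narrow, then wide) were 58.2% and 64.3% with a 9-nt element link, 48.9% and 56.5% with 15 nt, 72.8% and 80.3% with 1 site per region number, 59.1% and 66.7% with touching sites merged, 71.8% and 53.1% by outermost and 43.9% and 71.6% by innermost sites. Narrow pairs with more sites upstream, then downstream, were 22.8% and 13.5% (9-nt link), 18.4% and 7.18% (1 site per region number), 23.3% and 12.5% (merged), 15.3% and 11.5% (outermost) and 28.7% and 19.4% (innermost). The upstream share of unequal pairs, narrow then wide, was 71.9% and 54.4% with 1 site per region number, 57.1% and 57.9% by outermost sites, and 59.7% by innermost sites for narrow pairs. Spacing by outermost sites gave 0.440 narrow pairs per wide pair. Fewer or merged sites lower the number of sites per element by construction; for the other moves the cause was not tested.

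No paired analysis was possible because replicates were merged into 1 list before deposit, and for the same reason leaving out a replicate was not run. Without read numbers, a gene with 0 pairs cannot be told from one whose RNA was too rare, and exons and introns were not used. Sequence was read for 17 of 4311 narrow pairs, all near annotated starts or in hairpins, so they are not a sample of all pairs.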
